A study of Mus musculus with 15 samples.

Results

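The molecular chaperones and the genes of the unfolded protein response (UPR) were followed in hippocampal RNA of aged mice. They form a list of 42 genes, given by symbol, of 55401 genes in the count tables. The list was chosen with earlier results of these data known. All 42 symbols were found and all 42 passed the filter on low counts. The study asked what a high dose of docosahexaenoic acid (DHA), an omega-3 fatty acid, does to hippocampal gene expression in wild-type (WT) mice and in a model of Alzheimer's disease. The 15 animals were females of 18 to 20 months. The WT groups held 4 mice with vehicle and 4 with DHA, and the Tg2576 groups 4 with vehicle and 3 with DHA. DHA was given at 450 mg/kg and the vehicle was sesame oil, in each case for 5 weeks, so that the controls received the oil too. Tg2576 mice carry human amyloid precursor protein with the Swedish mutation under the prion promoter (labelled Tg2576 +/+), and the WT mice were negative littermates.

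Chaperones bind unfolded proteins and help them to reach or to keep their shape. Those of the cytosol are induced through the transcription factor HSF1 when proteins are damaged, as by heat. In the endoplasmic reticulum (ER), where secreted and membrane proteins such as the amyloid precursor protein are folded, the sensors ATF6, IRE1 (gene Ern1) and PERK (gene Eif2ak3) respond to unfolded proteins and raise the chaperones, folding enzymes and degradation factors of that compartment.

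Total counts ranged from 17372864 to 46596489 per mouse, and the Tg2576 vehicle 1 library was the shallowest. App, counted from its mouse gene, lay between 1572 and 1787 CPM (read counts scaled to a common library size by TMM factors) in WT and between 2076 and 2787 CPM in Tg2576 mice, so that every library matched its genotype. Of the 6 hippocampal, 6 neuronal and other cell type markers checked, none was at 0 across a group. The 6 choroid plexus markers, from tissue beside the hippocampus, summed to between 61.3 and 5815 CPM over the mice. As bulk tissue was sequenced, fewer cells of a type and less RNA per cell cannot be told apart in any value that follows.

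With edgeR's quasi-likelihood test and the study's threshold, an unadjusted p under 0.01, the only member called in 8 comparisons was Dnajb1, over both genotypes with DHA. No member had a Benjamini-Hochberg adjusted p under 0.05 in any comparison, and the smallest was 0.291. Between genotypes, 0 of 42 members were called under vehicle, where 3.09% of the 19536 genes tested were, and 0 under DHA, where 1.75% were. With DHA, 0 were called in WT mice against 1.38% of all genes, and 0 in Tg2576 mice against 0.353%. The interaction of genotype and DHA called 0 against 0.829%, the genotype over both treatments 0 against 3.85%, and a test for any difference among the 4 groups 0 against 2.36%. DHA over both genotypes called 1 of 42 against 0.87% of all genes, and against 0.532% for higher calls. Counts of 0 or 1 of 42 do not set the members apart from these shares.

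At an unadjusted p under 0.05, 2 members passed for genotype under vehicle (10.7% of all genes), 3 for genotype under DHA (6.86%), 1 for DHA in WT mice (5.92%) and 4 for DHA in Tg2576 mice (3.16%). The interaction had 0 (5.12%), genotype over both treatments 6 (11.6%), DHA over both genotypes 4 (3.78%) and the joint test 3 (8.3%). DESeq2 called 1 member each for DHA in WT mice (Dnajb1, with 2.03% of all genes called), DHA in Tg2576 mice (Hspa5, 0.645%), genotype over both treatments (Hspb1, 5.11%) and DHA over both genotypes (Dnajb1, 1.25%), and 0 in the other comparisons, while limma-voom called 0 in every comparison. Values without overlap between the groups were found for 2 members under vehicle (5.16% of all genes), 4 for genotype under DHA (8.57%), 3 for DHA in WT mice (5.02%) and 1 for DHA in Tg2576 mice (3.21%). The 95% intervals bound what these mice can show. They lay within a 1.5-fold change either way for 38, 37, 37 and 33 of 42 members in these 4 comparisons, and for 23 in the interaction.

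**Figure D1:**
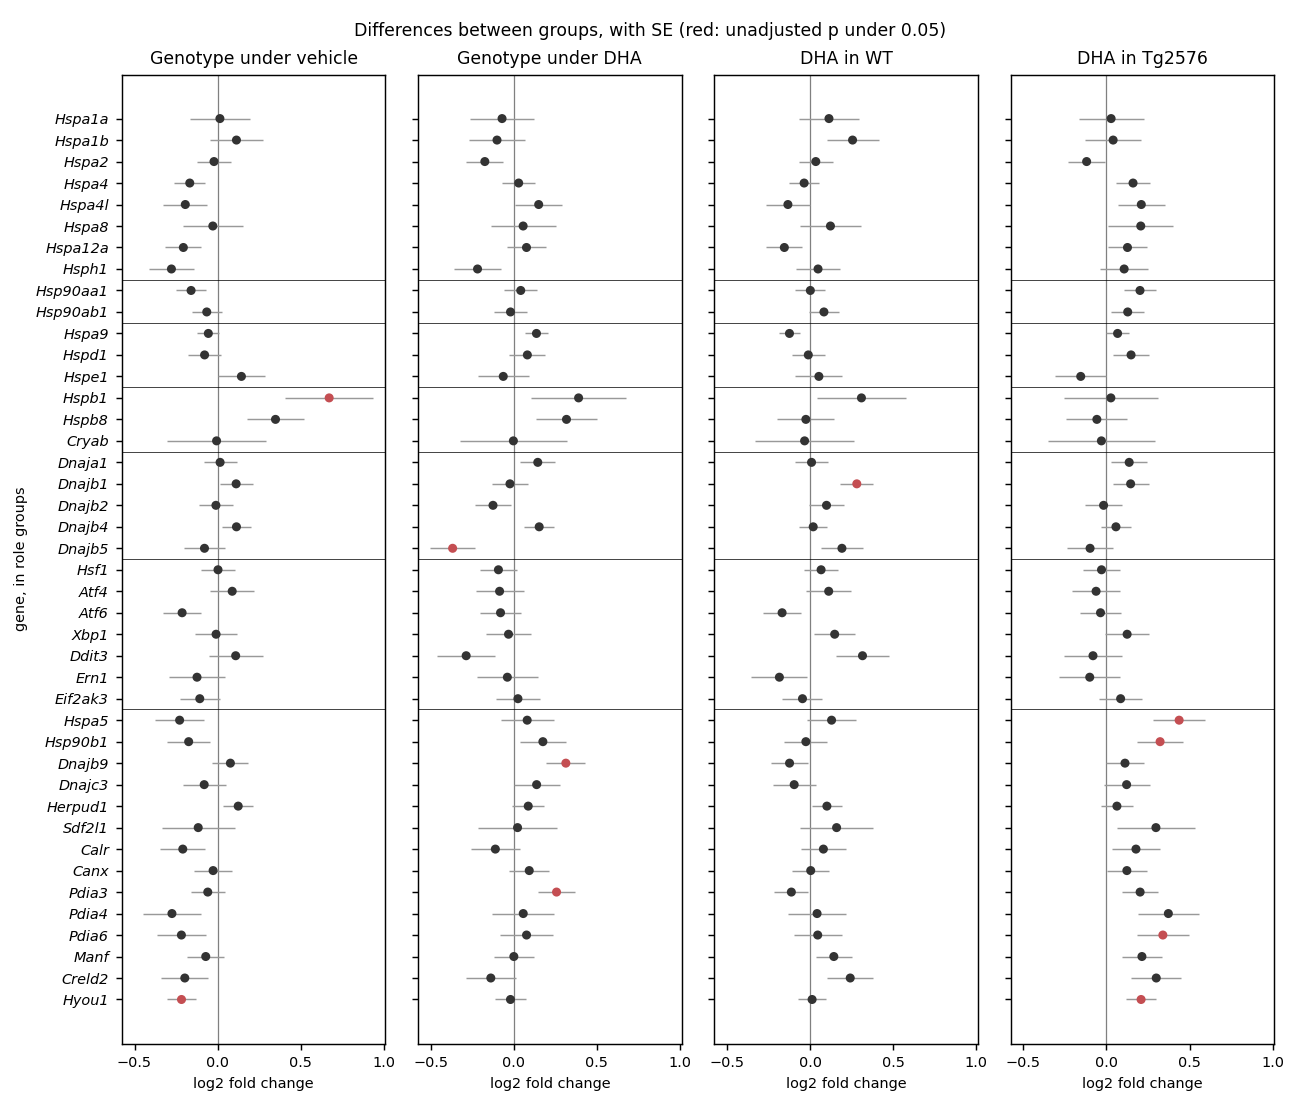
Log2 fold change (horizontal axis, with SE) of each of the 42 genes in the 4 comparisons of 2 groups, Tg2576 minus WT or DHA minus vehicle, in role groups. Red points had an unadjusted p under 0.05. The 14 ER genes at the bottom were all to the right of 0 with DHA in Tg2576 mice.

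The ER group holds 14 members, the chaperones and folding enzymes of the ER and its degradation factors. An ER stress response element (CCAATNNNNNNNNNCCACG, either strand), to which ATF6 binds with NF-Y, was searched in RefSeq promoters of GRCm38.p6, from 250 bases before to 50 after the start of transcription. Of 33 members with a promoter in that table, 7 held it, all in the ER group (Hspa5, Hsp90b1, Dnajc3, Calr, Canx, Pdia6 and Creld2), as did 0.137% of the 27025 genes in the table. The promoters of 3 members are printed because their genes are described mouse by mouse below, with the matches in capitals.
Hspa5, chr2:34771840-34772139, plus strand: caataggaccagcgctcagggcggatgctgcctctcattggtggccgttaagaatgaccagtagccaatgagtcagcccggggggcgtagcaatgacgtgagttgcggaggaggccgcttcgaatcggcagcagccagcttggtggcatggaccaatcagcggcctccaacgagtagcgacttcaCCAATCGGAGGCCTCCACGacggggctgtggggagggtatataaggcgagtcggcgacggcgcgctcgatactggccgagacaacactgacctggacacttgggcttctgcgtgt
Hsp90b1, chr10:86705395-86705694, minus strand: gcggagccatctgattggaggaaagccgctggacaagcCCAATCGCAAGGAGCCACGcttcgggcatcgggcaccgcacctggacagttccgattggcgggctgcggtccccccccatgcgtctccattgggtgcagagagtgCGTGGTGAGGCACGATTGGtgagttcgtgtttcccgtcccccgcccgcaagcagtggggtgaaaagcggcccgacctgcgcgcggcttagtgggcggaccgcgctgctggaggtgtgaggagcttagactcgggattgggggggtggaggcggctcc
Creld2, chr15:88819396-88819695, plus strand: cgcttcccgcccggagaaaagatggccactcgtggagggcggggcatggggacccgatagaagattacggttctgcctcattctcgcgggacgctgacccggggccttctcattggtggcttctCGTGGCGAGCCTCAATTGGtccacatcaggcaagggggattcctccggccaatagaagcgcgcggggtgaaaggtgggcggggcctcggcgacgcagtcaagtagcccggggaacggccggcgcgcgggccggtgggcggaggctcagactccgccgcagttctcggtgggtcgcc
The other motifs were rarer among the members. The UPR element (TGACGTGG) was in 0 of the 33 (0.714% of genes), the C/EBP-ATF response element (TGATGNAA) in Herpud1 alone (4.51%), and a heat shock element of 3 units (GAANNTTCNNGAA or TTCNNGAANNTTC) in Hsph1, Hspd1 and Hspe1 (0.662%). Hspd1 and Hspe1 lie head to head and share their promoter. A match is a description of letters and not a measured binding site.

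Hspa5 encodes BiP, the HSP70 of the ER and the usual reporter of the UPR. It was at 158, 215, 208 and 210 CPM in the 4 Tg2576 vehicle mice and at 310, 211 and 283 CPM in the 3 Tg2576 DHA mice. WT vehicle mice had 282, 234, 184 and 228 CPM, and WT DHA mice 201, 287, 260 and 266 CPM. Among Tg2576 mice 2 of 3 with DHA were above all those with vehicle, and the third was within their range. The log2 fold change with DHA was 0.44 ± 0.16 (SE) in Tg2576 mice (p = 0.0131, adjusted p = 0.999, exact permutation p = 0.114) and 0.13 ± 0.15 in WT mice (p = 0.393). The difference between these effects did not pass the test (interaction 0.31, 95% interval -0.15 to 0.76, adjusted p = 0.846).

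Hsp90b1 encodes GRP94, the HSP90 of the ER. Tg2576 vehicle mice had 114, 181, 157 and 149 CPM and Tg2576 DHA mice 215, 158 and 191 CPM. The groups overlapped, and the log2 fold change was 0.32 ± 0.14 (p = 0.0325, adjusted p = 0.999, exact permutation p = 0.114). WT mice had 200, 162, 149 and 167 CPM with vehicle and 152, 180, 174 and 159 CPM with DHA, a log2 fold change of -0.03 ± 0.13. Of its exonic bases 10.29% overlap the antisense gene 1810014B01Rik.

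Hyou1 encodes GRP170, which releases nucleotide from BiP. Its 4 Tg2576 vehicle values were 100, 112, 115 and 105 CPM, and its 3 Tg2576 DHA values, 127, 125 and 123 CPM, were all above them. This was the member whose Tg2576 groups did not overlap, with a log2 fold change of 0.21 ± 0.09 (p = 0.0352, adjusted p = 0.999, exact permutation p = 0.0571, the smallest that 4 against 3 mice allow). WT vehicle mice had 137, 133, 114 and 118 CPM and WT DHA mice 120, 144, 118 and 125 CPM. Under vehicle Hyou1 was 0.22 ± 0.08 lower in Tg2576 than in WT mice on the log2 scale (log2 fold change -0.22, p = 0.02, adjusted p = 0.372, exact permutation p = 0.0571), with 1 Tg2576 mouse inside the WT range.

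Creld2 encodes a secreted ER protein with disulfide isomerase activity. The CPM were 19.2, 15.4, 15.2 and 15.3 with vehicle and 18.1, 18.7, 18.8 and 21.4 with DHA in WT mice. Tg2576 mice had 12.9, 13.2, 14.4 and 16.3 CPM with vehicle and 21.8, 13.2 and 17.5 CPM with DHA. In both genotypes the groups overlapped by 1 mouse or more. Over both genotypes the log2 fold change with DHA was 0.27 ± 0.10 (p = 0.0174, adjusted p = 0.9998, exact permutation p = 0.0343 within genotypes).

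Pdia3 encodes the disulfide isomerase ERp57. WT DHA mice had 147, 143, 166 and 148 CPM and Tg2576 DHA mice 202, 153 and 187 CPM, a log2 fold change between genotypes of 0.26 ± 0.11 (p = 0.0315, adjusted p = 0.696, exact permutation p = 0.114). Under vehicle the values were 180, 154, 158 and 162 CPM in WT and 129, 171, 166 and 161 CPM in Tg2576 mice, a log2 fold change of -0.06 ± 0.10. Its interaction had the lowest p of the 42 members and missed the threshold (0.32, 95% interval -0.0002 to 0.63, adjusted p = 0.845).

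Dnajb9 encodes ERdj4, an ER cochaperone induced through XBP1. Under DHA the 3 Tg2576 mice, at 25.2, 28.7 and 28.7 CPM, were all above the 4 WT mice, at 21.6, 23.0, 21.001 and 23.1 CPM (log2 fold change 0.31 ± 0.12, p = 0.0158, adjusted p = 0.631, exact permutation p = 0.0571). Under vehicle the genotypes overlapped, with 25.2, 26.4, 20.7 and 24.5 CPM in WT and 25.1, 29.9, 25.9 and 21.1 CPM in Tg2576 mice.

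Counted as a group, 14 of 14 ER members had a higher estimate with DHA in Tg2576 mice, with a median log2 fold change of 0.21, while 49.1% of all genes did, with a median of -0.0039. Of all 42 members, these 14 included, 31 were higher, with a median of 0.12. Outside the ER group the direction differed between role groups. Cytosolic HSP70 and HSP110 members were higher in 7 of 8 cases (median 0.12) and cytosolic HSP90 members in 2 of 2 (0.16). Mitochondrial members were higher in 2 of 3 cases and cytosolic HSP40 members in 3 of 5. Of the 7 regulators 2 were higher, and of the 3 small heat shock proteins 1. Of the 14 ER members, 4 had an unadjusted p under 0.05 (Hspa5, Hsp90b1, Hyou1 and Pdia6, which encodes another disulfide isomerase, at 0.34 ± 0.16) and 0 were called. In WT mice 10 of 14 were higher with DHA (47.3% of all genes), at a median of 0.04. Under vehicle 12 of 14 were lower in Tg2576 than in WT mice (50% of all genes), at a median of -0.15. With single mice left out that count ranged from 9 to 13. In the interaction 13 of 14 estimates were above 0 (50.6% of all genes). These comparisons share mice, the Tg2576 vehicle group above all, and genes of a pathway do not vary independently.

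Leaving out Tg2576 vehicle 1 or Tg2576 DHA 1 lowered both the median of these members and the number with p under 0.05. Tg2576 vehicle 1, the shallowest library, was the lowest of all 15 mice for 10 of 14 ER members and for 20 of all 42. Tg2576 DHA 1 was the highest of all 15 for 8 of 14 ER members. Without Tg2576 vehicle 1 the median log2 fold change was 0.19 with 14 members higher and 1 with p under 0.05. Without Tg2576 DHA 1 it was 0.16 with 13 higher and 0 with p under 0.05, and without both mice it was 0.09 with 12 higher. In the opposite direction, Tg2576 DHA 2 was the lowest of its group for 10 of 14 ER members. Without it 4 members were called for DHA in Tg2576 mice, namely Hspa5, Pdia6, Manf and Creld2, with 0.36% of all genes called. Leaving out Tg2576 vehicle 2 called 3 (Hspa4, Hsp90aa1 and Hsp90b1), with 1.29% of all genes called. The leaving out of both mice together was chosen after seeing the data.

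Other values also differed within these groups. The summed choroid plexus markers were 3099 to 5149 CPM in Tg2576 DHA mice and 141 to 3159 CPM in Tg2576 vehicle mice. Tg2576 DHA 1, with 5149 CPM, was the highest of its group for these markers and for 11 of 14 ER members. The mice highest for the markers in the other groups did not all go this way. WT vehicle 3 (3722 CPM) was the highest of its group for 0 of 14 ER members and the lowest for 11. WT DHA 3 (5815 CPM) was the highest of its group for 3, and Tg2576 vehicle 2 (3159 CPM) for 6. None of the 6 markers was at 0 across a group, and Kcne2 was at 0 in at least 1 mouse. In Tg2576 vehicle 1 the oligodendrocyte markers summed to 4629 CPM, against 6535 to 6983 CPM in the rest of its group, and the cold-inducible gene Cirbp was at 108 CPM, against 61.3 to 83.2 CPM. The 5 markers of plaque-associated microglia summed to 27.0 CPM in that mouse, against 65.0 to 83.2 CPM in the rest of its group and 16.5 to 33.9 CPM in WT mice. In Tg2576 DHA 2 they summed to 35.4 CPM, against 72.8 and 76.8 CPM in the other mice of its group. The mitochondrial share of counts was 2.21% in Tg2576 vehicle 1 and 3.18% to 3.38% in the rest of its group. The part of these values in the ER result was not tested.

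**Figure D2:**
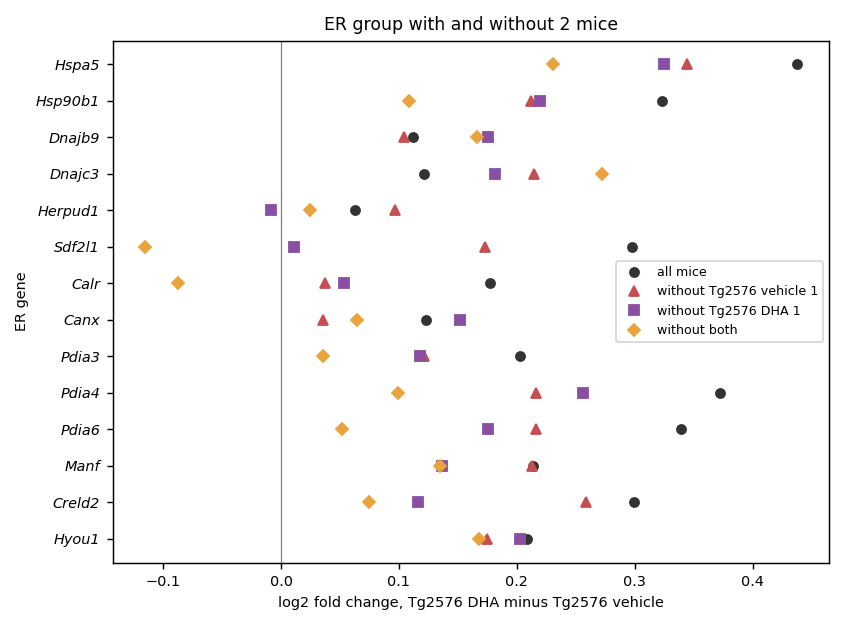
Log2 fold change of the 14 ER genes between Tg2576 DHA and Tg2576 vehicle mice, with all mice and without 1 or both of 2 mice. Most estimates move toward 0 when both are left out, and those of Sdf2l1 and Calr fall below it.

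**Figure D3:**
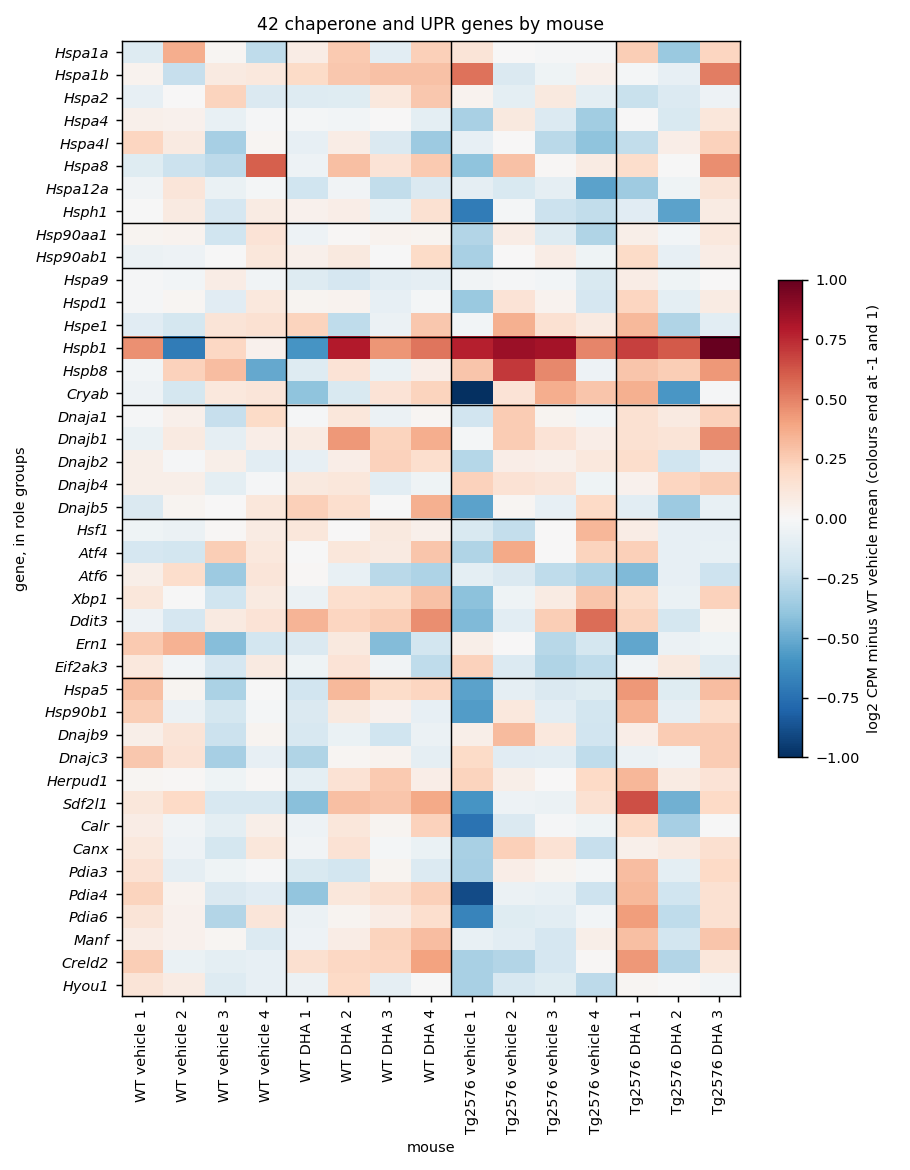
Log2 CPM of the 42 genes (rows, in role groups) in each of 15 mice (columns, by group), as the difference from the WT vehicle mean. Tg2576 vehicle 1 is the column with the most low values (lowest of 15 mice for 20 genes), and Hspb1 and Cryab are the rows with the widest spread.

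Small heat shock proteins hold unfolded proteins without using ATP. Hspb1 (HSP25, the mouse counterpart of HSP27) was among the least abundant members. WT vehicle mice had 3.45, 1.55, 2.91 and 2.59 CPM and Tg2576 vehicle mice 4.31, 4.56, 4.47 and 3.54 CPM, without overlap (log2 fold change 0.67 ± 0.27, p = 0.0219, adjusted p = 0.381, exact permutation p = 0.0286). Under DHA the genotypes overlapped, with 1.67, 4.35, 3.41 and 3.65 CPM in WT and 4.03, 3.84 and 5.03 CPM in Tg2576 mice (0.39 ± 0.29). Over both treatments the log2 fold change was 0.53 ± 0.20 (p = 0.0143, adjusted p = 0.291, exact permutation p = 0.00571 within treatments). The transcript shares 51.6% of its 50-base windows with other genes, mostly with the pseudogene Hsp25-ps1. Reads that map to several places were left out of the counts by default, and how many were lost here was not measured.

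Hspb8 (HSP22), a partner of the cochaperone BAG3 in selective autophagy, was also higher in Tg2576 mice, by 0.33 ± 0.13 over both treatments on the log2 scale (p = 0.0165, adjusted p = 0.307, exact permutation p = 0.0171 within treatments). WT and Tg2576 values were 12.3, 14.7, 15.5 and 8.79 CPM in WT vehicle and 15.2, 20.4, 17.4 and 12.1 CPM in Tg2576 vehicle mice, and 11.4, 13.8, 11.9 and 13.1 CPM in WT DHA and 15.2, 14.9 and 16.96 CPM in Tg2576 DHA mice. Under vehicle the genotypes overlapped and under DHA they did not. In edgeR neither Hspb1 nor Hspb8 reached the threshold of 0.01 with all mice and the filter on low counts. Without that filter edgeR called both over both treatments, and DESeq2 with the filter called Hspb1 there. In edgeR with the filter, Hspb1 was called over both treatments when WT vehicle 1 or WT DHA 2 was left out. It was called under vehicle when WT DHA 1 was left out. Hspb8 was called over both treatments when WT vehicle 3 or Tg2576 vehicle 4 was left out. Cryab, the αB-crystallin of oligodendrocytes and astrocytes, was the member with the widest spread, from 36.2 CPM in Tg2576 vehicle 1 to 119 CPM in Tg2576 vehicle 3, and its log2 fold change between genotypes was -0.01 ± 0.30 under vehicle. The 5 astrocyte markers summed to 2203 to 2515 CPM in the WT groups and to 2598 to 3376 CPM in the Tg2576 groups, without overlap. Of these markers Gfap alone had 500 to 693 CPM in WT and 830 to 1686 CPM in Tg2576 mice, while the other 4 summed to 1660 to 1826 CPM and to 1632 to 1767 CPM, which overlapped. The part of these markers in the values of the 3 small heat shock genes was not tested.

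**Figure D4:**
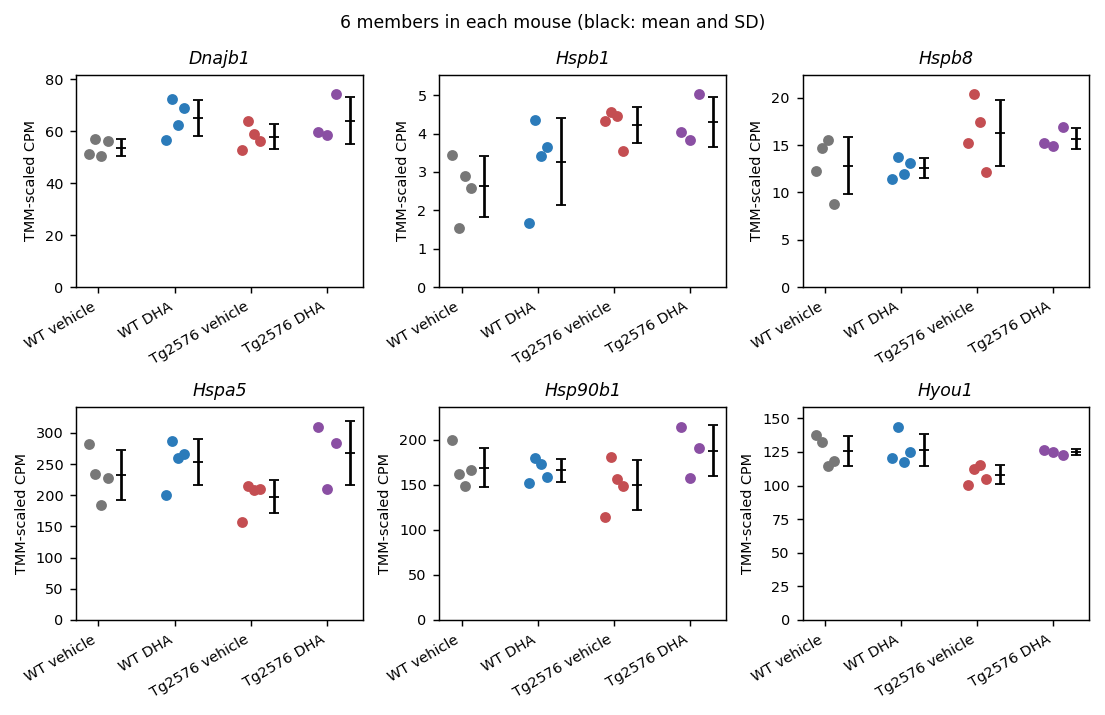
TMM-scaled CPM of 6 genes in each mouse, by group, with the mean and SD in black beside the points and vertical axes that start at 0. Hyou1 is the gene whose Tg2576 DHA mice, at 123 to 127 CPM, are all above the Tg2576 vehicle mice, at 100 to 115 CPM.

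HSP40 proteins deliver substrates to HSP70. Dnajb1, the main heat-inducible one, was at 51.2, 56.9, 50.3 and 56.0 CPM in WT vehicle and 56.6, 72.4, 62.5 and 68.8 CPM in WT DHA mice, where 3 of 4 with DHA were above all with vehicle. Tg2576 vehicle mice had 52.8, 63.9, 58.8 and 56.1 CPM and Tg2576 DHA mice 59.5, 58.4 and 74.3 CPM, which overlapped. The log2 fold change with DHA was 0.28 ± 0.10 in WT (p = 0.0119, exact permutation p = 0.0571) and 0.15 ± 0.11 in Tg2576 mice (p = 0.194, exact permutation p = 0.343). Over both genotypes it was 0.21 ± 0.07 (95% interval 0.06 to 0.37, p = 0.00975, adjusted p = 0.9998, exact permutation p = 0.0155 within genotypes). This only call among the members lay just under the threshold, and the exact test did not reach it. It was lost for 11 of the 15 mice when each was left out, and with limma-voom.

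Dnajb5, an HSP40 of the heart and brain, went the other way between genotypes. Under DHA the 3 Tg2576 mice, at 175, 146 and 179 CPM, were below the 4 WT mice, at 221, 211, 187 and 241 CPM (log2 fold change -0.37 ± 0.14, p = 0.0152, adjusted p = 0.629, exact permutation p = 0.0571). Under vehicle the genotypes overlapped, with 170, 191, 189 and 203 CPM in WT and 130, 190, 177 and 216 CPM in Tg2576 mice. The other HSP40 members, Dnaja1, Dnajb2 and Dnajb4, spanned at most 1.43-fold from the lowest to the highest mouse.

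Transcripts of Hsp90ab1, Hspa8 and Hsp90aa1 were the most abundant of the 42. Per kilobase of exonic length the mean in WT vehicle mice was 517 CPM for Hsp90ab1 and 150 CPM for Hsp90aa1, the constitutive and the inducible HSP90, and 201 CPM for Hspa8, the constitutive HSP70. The stress-inducible HSP70 genes were low, with 1.58 CPM per kilobase for Hspa1a and 4.54 for Hspa1b. These counts may be a lower reading of the family, since Hspa1a shares 58.8% of its 50-base windows with Hspa1b, and Hspa8 and Hsp90aa1 share 52.7% and 58.5% of theirs with other genes. Hspa1a ranged from 3.58 to 5.95 CPM over the 15 mice, and none of the 10 members of these groups was called in any comparison. Hspa1b was at 14.5 to 15.6 CPM in WT DHA and 10.8 to 13.6 CPM in WT vehicle mice, without overlap (p = 0.121, exact permutation p = 0.0286). Under vehicle Hspa12a was at 210 to 287 CPM in Tg2576 and 291 to 332 CPM in WT mice, also without overlap (p = 0.0755, exact permutation p = 0.0286).

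Hsph1 encodes HSP105, which releases nucleotide from cytosolic HSP70. WT vehicle mice had 293, 314, 262 and 312 CPM and WT DHA mice 303, 308, 282 and 327 CPM. Tg2576 vehicle mice had 181, 292, 254 and 248 CPM and Tg2576 DHA mice 272, 204 and 311 CPM. Although Tg2576 vehicle 1, 3 and 4 and Tg2576 DHA 2 were all below the lowest WT mouse, at 262 CPM, the genotypes overlapped under both treatments. Over both the log2 fold change was -0.25 ± 0.10 (p = 0.0215, adjusted p = 0.334, exact permutation p = 0.0196 within treatments).

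In mitochondria HSP70 is Hspa9 (mortalin) and the chaperonin is made of Hspd1 and Hspe1. Hspa9 varied least of all members, 1.18-fold between the lowest and the highest mouse. It was at 215, 212, 228 and 212 CPM in WT vehicle and at 198, 192, 201 and 203 CPM in WT DHA mice, without overlap but with a small log2 fold change (-0.12 ± 0.07, p = 0.0731, exact permutation p = 0.0286). Tg2576 vehicle mice had 211, 215, 213 and 195 CPM and Tg2576 DHA mice 228, 210 and 217 CPM, and the latter were all above the WT DHA mice (0.14 ± 0.07, p = 0.0696, exact permutation p = 0.0571). Neither difference passed the threshold.

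The 7 regulators are Hsf1 and the sensors and transcription factors of the UPR. None was called in any comparison, and none had a p under 0.05. Ddit3 encodes CHOP, a factor of prolonged ER stress that can lead to cell death. Its WT DHA values, 24.1, 22.1, 22.6 and 26.3 CPM, were all above the WT vehicle values, 18.3, 16.9, 20.2 and 20.9 CPM (log2 fold change 0.32 ± 0.16, p = 0.0685, adjusted p = 0.863, exact permutation p = 0.0286). Tg2576 mice overlapped, with 14.02, 17.6, 22.6 and 28.0 CPM with vehicle and 22.2, 16.8 and 19.4 CPM with DHA (-0.08 ± 0.18). Per kilobase Atf4, at 49.7 CPM in WT vehicle mice, was the most abundant regulator and Ern1, at 2.07 CPM, the least. Gene counts do not show the splicing of Xbp1, the activation of ATF6 or the translation of Atf4.

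Genes related to the members were read from lists fixed with the design. Apart from an ER list below, these held 26 cytosolic cochaperones and chaperonin subunits, 19 genes of the integrated stress response and 10 of mitochondrial proteostasis. They also held 2 cold-inducible genes and 10 immediate early genes. Of these genes 0 were called in each of the 8 comparisons by edgeR, and at most 2 of a list had an unadjusted p under 0.05. These were 2 of 19 integrated stress response genes for genotype under vehicle (10.7% of all genes) and 2 of 10 immediate early genes in the interaction (5.12%). The immediate early genes, which respond to neuronal activity, had median log2 fold changes of 0.31 for genotype under vehicle (10 of 10 higher), -0.25 for genotype under DHA (10 of 10 lower), 0.38 for DHA in WT mice (9 of 10 higher) and -0.39 for DHA in Tg2576 mice (9 of 10 lower), with -0.60 in the interaction (10 of 10 below 0). Of 37 further ER folding, degradation and sensor genes, 1 was called for genotype under DHA (1.75% of all genes), 2 for DHA in WT mice (1.38%), 2 for genotype over both treatments (3.85%), 1 in the joint test (2.36%) and 0 in the other comparisons. None passed p under 0.05 with DHA in Tg2576 mice, where 19 had a higher and 18 a lower estimate (median log2 fold change 0.0009). Among those 37 genes Wfs1, the ER protein wolframin, passed the threshold as higher with DHA in WT mice (0.31 ± 0.09, adjusted p = 0.542) and lower in Tg2576 than in WT mice under DHA (-0.40 ± 0.09, adjusted p = 0.39). Over both treatments it was also lower in Tg2576 mice (-0.27 ± 0.06, adjusted p = 0.0994), and it passed the joint test (adjusted p = 0.222). Ppib, the ER cyclophilin B, was higher with DHA in WT mice (0.72 ± 0.20, adjusted p = 0.54). Sec61a1, the core of the ER translocon, was lower in Tg2576 mice over both treatments (-0.21 ± 0.06, adjusted p = 0.174).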

How the data were processed

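Hippocampal RNA of 15 mice was sequenced. The deposited files hold raw read counts per gene, which the authors made with featureCounts 1.6.0 after STAR 2.6.1c on GRCm38 (submitters' processing notes and file headers), over exons of GENCODE M25 and with the default settings, which ignore strand and leave out reads of several places or genes. The labels and the study's methods name different library kits. Symbols came from a table of gene IDs (55141 of 55401 matched). Ddit3 has a second ID with 0 reads.

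Counts were analysed with edgeR 4.0.16 in R 4.3.3. The filterByExpr function (minimum count 10) kept 19536 genes, TMM factors were 0.961 to 1.03, and a robust quasi-likelihood fit with 1 coefficient per group used all 15 mice. The 8 comparisons were the 4 between pairs of groups, the interaction, the 2 main effects and a joint test. A call is an unadjusted p under 0.01, as in the study. p-values were adjusted (Benjamini-Hochberg) over all genes. The SE is the log2 fold change over the square root of F. Exact permutation tests were two-sided, on log2 CPM with a prior count of 2, and cannot go below 0.0286 (4 against 4) or 0.0571 (4 against 3). For the 2 main effects, added after the data were seen, labels were exchanged within treatments or genotypes (2450 arrangements). The study's methods state that mice of each genotype were allotted at random to DHA or vehicle. They do not say how the sequenced mice were picked from these groups. The p-values set a difference between groups against the spread between these mice.

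The fit was tested on simulated counts against the recovery that their means and dispersions predict, a criterion set after a first, guessed bound was missed. No 2 libraries of a group agreed within sampling noise.

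Members given mouse by mouse are those called and the 3 lowest p of each comparison. Other members are given by range or count, or as the most abundant of their group, and related genes only where called. Pdia6, Manf, Cryab, Hspa4 and Hsp90aa1 were named for counts, and Hspa1b and Hspa12a given by group ranges, after their values were seen. The members and lists were chosen with earlier results of these data known. Promoters came from RefSeq (33 of 42 members), and shared windows of 50 bases from GENCODE M21 transcripts. Alternatives were DESeq2 1.42.0, limma-voom (limma 3.58.1), other scalings and filters, a replicate block, fits of only the groups compared, and each mouse left out.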

Additional observations from a re-analysis of the deposited data

Results flagged for a closer look

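Among the 13 genes given mouse by mouse, 39 groups of 4 mice were searched for a mouse far from the rest, of which chance flags about 1 in 20, and 2 were found. Hspa5 in Tg2576 vehicle 1, at 158 CPM, was far below the next mouse of its group, at 208 CPM, the gap being 0.867 of the group's range. Creld2 in WT vehicle 1, at 19.2 CPM, was far above the next, at 15.4 CPM (0.937 of the range). No member passed the interaction test for a DHA response that differs between genotypes. This does not show equal responses, since only 23 of 42 of the 95% intervals lay within a 1.5-fold difference.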

How the results depend on the processing

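Of 480 refits of 21 single-gene values, 429 stayed on their side of the threshold, 38 came to pass it, 13 no longer passed it and 0 changed direction. The 13 were all Dnajb1 with DHA over both genotypes. Counts of called members moved between 0 and 4. DESeq2 gave 1 for DHA in Tg2576 mice, 1 for DHA in WT mice and 1 for genotype over both treatments. For DHA over both genotypes limma-voom gave 0 (0.942% of all genes called), and library sizes without TMM factors gave 0 (0.86%). Without TMM factors the count was 1 for genotype under DHA (1.76% of all genes called) and 1 for genotype over both treatments (3.82%). With no filter it was 1 (1.05%) and 2 (2.43%) in these 2 comparisons. A fit of only the groups compared gave 2 for genotype under DHA (Dnajb5 and Dnajb9, with 1.57% of all genes called) and 2 for DHA in WT mice (Dnajb1 and Ddit3, 2.39%). When single mice were left out, the counts ranged from 0 to 2 for genotype under vehicle, 0 to 1 for genotype under DHA, 0 to 1 for DHA in WT mice, 0 to 4 for DHA in Tg2576 mice, 0 to 4 for genotype over both treatments, 0 to 4 for DHA over both genotypes and 0 to 1 for the joint test. The interaction gave 0 in every refit. Calls over all genes moved too, from 53 to 312 genes for DHA in Tg2576 mice and from 510 to 1008 for genotype over both treatments when single mice were left out. Without Tg2576 vehicle 4 the 4 members of genotype over both treatments were Hspb8, Dnajb4, Dnajb5 and Dnajb9, with 3.8% of all genes called. Without WT vehicle 3 the 2 of genotype under vehicle were Atf6 and Hyou1, with 3.86% of all genes called. The 4 of DHA over both genotypes (Dnajb1, Hspa5, Manf and Creld2) were called without Tg2576 DHA 2, with 0.765% of all genes called. The ER members higher with DHA in Tg2576 mice numbered 13 to 14, and those lower in Tg2576 mice under vehicle 9 to 13. The causes were not tested.

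The replicate numbers did not pair the mice (mean correlation of same-numbered mice 0.018, from -0.24 to 0.21). With the replicate block, 1 member was called for DHA over both genotypes (Dnajb1, with 0.886% of all genes called) and 0 in the other 7 comparisons. The ER counts stayed at 14 and 12. With 3 to 4 mice a group, the depth limits Hspa1a and Hspb1, the members with the fewest counts.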
